A study of Homo sapiens with 18 samples.

Results

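The genes described here are 45 mRNA decay and surveillance factors, chosen by name for their roles: the CCR4-NOT deadenylase with the TOB adaptors, the PAN2-PAN3 and PARN deadenylases, the decapping machinery with the 5′ exonucleases, the RNA exosome and the nonsense-mediated decay factors. All 45 of 45 were found among the 36576 genes of the expression table, and all 45 passed the filter on low values, which kept 12224 genes. The cells were labelled A549, a human lung adenocarcinoma line, and were exposed for 24 h to 10 mg/L BPQD (black phosphorus quantum dots) or 100 mg/L TiO2 (titanium dioxide), or were left untreated as control. There were 3 groups, each with 3 input libraries and 3 immunoprecipitated with an antibody against N6-methyladenosine (m6A), and no genotype or further agent separates the groups in the labels. The doses of the materials differ, so BPQD against TiO2 is a comparison of these exposures as given. The labels do not tie replicates to separate cultures. The p-values therefore cover the spread between these libraries alone, and that spread may be technical.

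Most cytoplasmic mRNAs are degraded after their poly(A) tail has been shortened, first by PAN2-PAN3 and then by CCR4-NOT. The deadenylated mRNA is then decapped by DCP2 and digested from the 5′ end by XRN1, or it is digested from the 3′ end by the exosome. Nonsense-mediated decay (NMD) feeds mRNAs with a premature stop codon into the same enzymes, after UPF1 has been phosphorylated by SMG1. The m6A mark connects to these enzymes through YTH-domain readers: YTHDF2 binds methylated mRNA and recruits CCR4-NOT through its scaffold CNOT1. The series measured m6A and mRNA levels after exposure to either nanomaterial, and the question asked of these genes is how the decay machinery itself was expressed and methylated.

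Levels are given as FPKM (fragments per kilobase of transcript, scaled to the mapped fragments of the library) as the authors made them, for replicates 1, 2 and 3 in that order. Differences are log2 fold changes ± SE on log2(FPKM + 1), which understates the change of low genes. They come from limma, with Benjamini-Hochberg adjusted p over all 12224 genes and n = 3 libraries per group, and a gene is said to have risen or fallen where that p is under 0.05. From the steps between the lowest FPKM values, the input libraries were estimated to hold between 21700000 and 30800000 fragments. Libraries of the same group correlated at 0.980 to 0.983 and libraries of different groups at 0.966 to 0.975. The FPKM values of a library summed to 213571 ± 593 under BPQD, 219559 ± 110 under TiO2 and 222081 ± 652 in control (SD). Epithelial keratins were abundant (KRT18 at 403 to 582 FPKM), but only 4 of 10 listed epithelial markers passed the filter on low values. CDH1 lay at 0.242 to 0.409 FPKM, and the lung genes SFTPB and NKX2-1 reached at most 0.0336 and 0.0970 FPKM. The A549 markers AKR1B10 and ALDH1A1 were nearly absent, at most 0.998 and 0.116 FPKM. CDKN2A and CDKN2B, which are deleted in A549, were read at 19.3 to 27.4 and 7.12 to 10.9 FPKM, so the data go against the label. Markers of cell types also differed between the groups. Of 4 tested epithelial markers, 3 fell under BPQD and 2 under TiO2: KRT18 averaged 407 FPKM under BPQD, 479 FPKM under TiO2 and 581 FPKM in control, while EPCAM, at 2.68 FPKM under BPQD, 2.71 FPKM under TiO2 and 2.19 FPKM in control, passed no test. The KRT8 call under BPQD was lost in 7 of 15 alternatives, among them without BPQD replicates 1, 2 and 3 and without control replicates 1 and 3 (highest adjusted p = 0.0844). Both tested fibroblast markers, COL1A1 and PDGFRB, fell under both materials, with median log2 fold changes of -0.52 under BPQD and -0.51 under TiO2, and COL1A2 reached at most 0.104 FPKM. The endothelial CDH5 averaged 1.19 FPKM under BPQD, 2.75 FPKM under TiO2 and 3.12 FPKM in control and fell under BPQD, and PECAM1 reached at most 0.186 FPKM. CD68, a macrophage and lysosome marker, averaged 11.96 FPKM under BPQD, 20.1 FPKM under TiO2 and 11.6 FPKM in control and rose under TiO2, while the leukocyte marker PTPRC reached at most 0.0346 FPKM. The part of these shifts in the results below was not tested, and in bulk RNA fewer cells of a type and less RNA per cell cannot be told apart.

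A RefSeq promoter sequence was available for 39 of 45 members. Of these, 9 with a start under a deposited m6A peak are shown by their first 30 transcribed bases. They are shown because several of these peaks carry the m6A results. The 9 are not a full count of the members with such a start. Capitals mark GGAC, the core of the usual m6A motif, and a first transcribed A. Antibodies against m6A also bind a dimethylated adenosine, m6Am, which occurs where the first transcribed base is A. The sequences are RefSeq, build GRCh38.p14, written 5′ to 3′ on the strand of the gene.
UPF1, chr19:18831959-18831988, plus strand: Agttcctgctctaggctgcgagcggctggc
UPF3A, chr13:114281601-114281630, plus strand: gtcgggggctggcggctgcggctcggcgga
UPF3B, chrX:119852934-119852963, minus strand: gttccggccaagccgcttcagcgggGGACg
SMG6, chr17:2303756-2303785, minus strand: gtggtggtttcctggctgcgcgcggcggtg
CNOT6, chr5:180494379-180494408, plus strand: gagGGACggcggccgccgccatgatgcttg
CNOT11, chr2:101252886-101252915, plus strand: gcgctttacggccgcggGGACggagcgagc
TOB1, chr17:50867949-50867978, minus strand: Agtgcggttccttctaaaaaggagaggcgg
TOB2, chr22:41446772-41446801, minus strand: gctcacttcgggccggggcgcgggaaggtg
EXOSC6, chr16:70251911-70251940, minus strand: Agggcgttgggcggaaggggttcgcacgcc
UPF1, TOB1 and EXOSC6 begin with A, and CNOT6, CNOT11 and UPF3B hold GGAC. Over the 39 members, 14 begin with A, against 44.4% of all 35116 promoters, and 6 hold GGAC on the transcribed strand in the first 50 bases, against 18.9%. These matches describe letters and not methylated sites, and the starts used in these cells may differ from those of RefSeq. UPF3A, whose start peak had the largest change of the peaks over these 9 starts in the authors' deposited tables (log2 fold changes of -0.797 under BPQD and -0.793 under TiO2), has neither capital in these bases.

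Under BPQD more of the decay factors rose than fell. Of the 45 members, 24 rose and 5 fell, and 16 missed the threshold, against 20.6% of all tested genes higher and 23.4% lower, 44.0% in either direction. The count of rises ran from 17 to 28 over the 15 alternatives and fell short of a majority in 9 of them. The median member log2 fold change was 0.11, against -0.01 over all tested genes. After rescaling each library to an equal sum over all genes (TPM), which put the share of rises among all called genes at 58.3% instead of 46.9%, the members' median was 0.17. The median over all tested genes was then 0.038. Of the same 45 genes, 8 rose, 10 fell and 27 missed it under TiO2. These shares, 17.8% higher, 22.2% lower and 40% in either direction, were near the 17.3%, 20.5% and 37.7% of all genes. The member median was 0.0077, against -0.02 over all genes. Set directly against TiO2, BPQD libraries had 21 members higher, 5 lower and 19 not past the test, against 19.0%, 18.6% and 37.6% of all genes, with a member median of 0.13 against 0.0032. Libraries of the groups did not overlap for 36 members under BPQD against control, 23 under TiO2 against control and 29 between the materials, against 55.6%, 51.7% and 51.1% of all tested genes. The changes were small: PAN2 under BPQD, the largest called change against control, was 0.56 on the log2 scale.

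**Figure D1:**
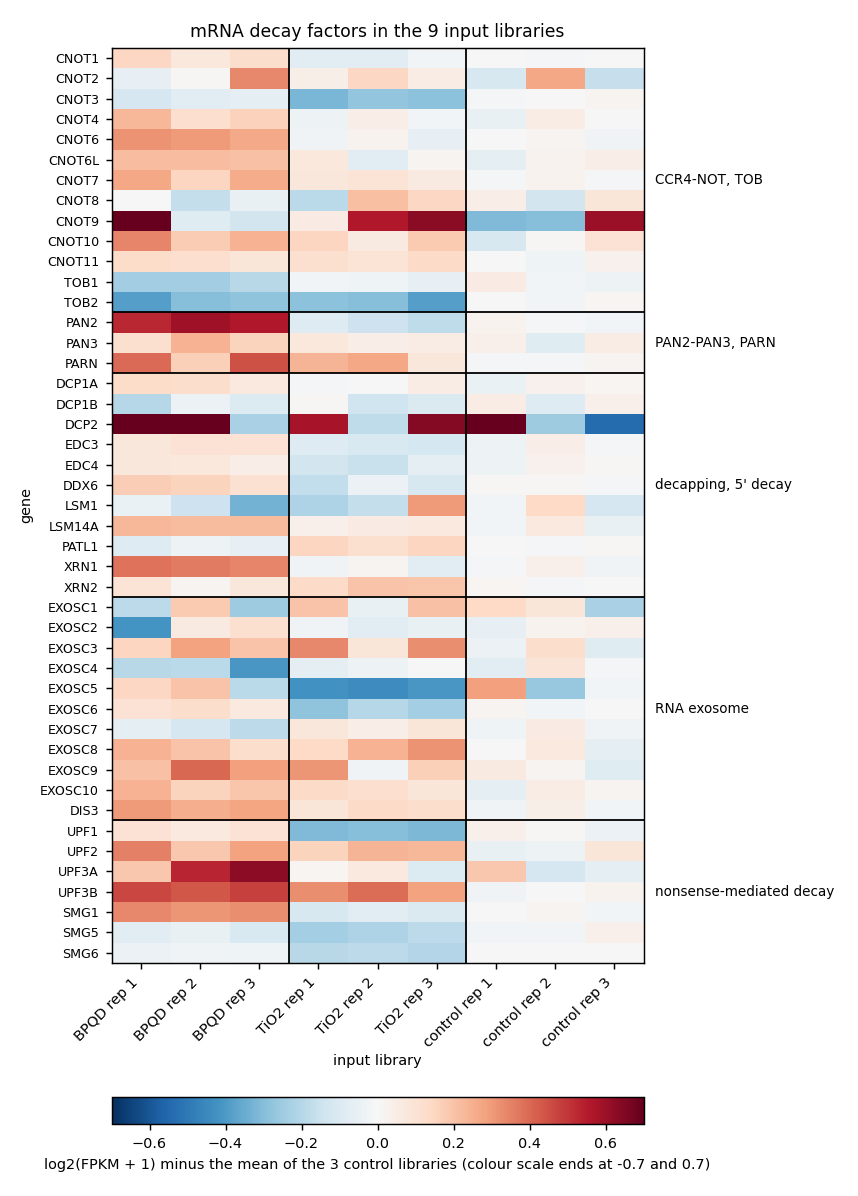
Level of each of the 45 decay factors in each of the 9 input libraries, as log2(FPKM + 1) minus the mean of the 3 control libraries (red above it, blue below it), with genes in rows grouped by role. The 3 BPQD columns are mostly red, with 24 of 45 genes called higher, the TiO2 columns are mixed, with 8 higher and 10 lower, and CNOT9 and DCP2 vary most within groups.

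In the CCR4-NOT complex with its TOB adaptors, rises outnumbered falls under BPQD. Of these 13 genes, 7 rose and 3 fell under BPQD, with a median log2 fold change of 0.11, and 1 rose and 2 fell under TiO2, with a median of 0.0077. Between the materials 6 were higher and 1 lower under BPQD. Under BPQD 53.8% rose and 23.1% fell, against 20.6% and 23.4% of all tested genes, so the falls were near that share. Under TiO2 7.69% rose and 15.4% fell, against 17.3% and 20.5%. Between the materials 46.2% were higher and 7.69% lower, against 19.0% and 18.6%. CNOT6, CNOT6L, CNOT7 and CNOT8 are the catalytic subunits of CCR4-NOT. CNOT6, a nuclease of the CCR4 type, had 14.2, 13.9 and 13.6 FPKM under BPQD, 10.96, 11.4 and 10.7 FPKM under TiO2 and 11.2, 11.3 and 10.98 FPKM in control. Every BPQD library lay above every other one, and the TiO2 and control libraries overlapped. The change was 0.29 ± 0.030 (adjusted p = 0.000187) under BPQD and -0.018 ± 0.030 (adjusted p = 0.673) under TiO2. Its paralog CNOT6L, a low gene, had 2.67, 2.68 and 2.64 FPKM under BPQD, 2.33, 2.01 and 2.21 FPKM under TiO2 and 2.01, 2.21 and 2.26 FPKM in control. CNOT6L rose under BPQD by 0.21 ± 0.050 (adjusted p = 0.0102), and TiO2 and control libraries again overlapped. CNOT7, a nuclease of the CAF1 type, had 8.84, 8.04 and 8.77 FPKM under BPQD, 7.601, 7.71 and 7.52 FPKM under TiO2 and 7.12, 7.28 and 7.06 FPKM in control. Its rise under BPQD was 0.23 ± 0.037 (adjusted p = 0.00197), while 0.079 ± 0.037 (adjusted p = 0.138) under TiO2 did not pass. The paralog CNOT8, with 12.3 to 13.97 FPKM under BPQD, 12.1 to 16.2 FPKM under TiO2 and 12.7 to 14.8 FPKM in control, overlapped in all groups and passed no test.

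The scaffold CNOT1 had 35.5, 33.7 and 34.99 FPKM under BPQD, 30.2, 30.3 and 31.6 FPKM under TiO2 and 32.1, 31.8 and 32.1 FPKM in control. It rose slightly under BPQD, 0.11 ± 0.027 (adjusted p = 0.011), and differed from TiO2 by 0.17 ± 0.027 (adjusted p = 0.00198). CNOT10 and CNOT11 form a module on the N-terminal part of the scaffold. CNOT10 had 7.56, 6.63 and 7.01 FPKM under BPQD, 6.49, 6.05 and 6.67 FPKM under TiO2 and 5.25, 5.79 and 6.25 FPKM in control, a rise of 0.25 ± 0.067 (adjusted p = 0.0166) under BPQD. CNOT11 had 25.2, 25.1 and 24.4 FPKM under BPQD, 24.99, 24.7 and 25.4 FPKM under TiO2 and 23.02, 22.5 and 23.6 FPKM in control, and it rose under both materials, by 0.11 ± 0.025 (adjusted p = 0.00969) under BPQD and 0.12 ± 0.025 (adjusted p = 0.00933) under TiO2. CNOT4, a ubiquitin ligase, had 4.24, 3.85 and 3.9999 FPKM under BPQD and 3.31, 3.63 and 3.46 FPKM in control, and it rose by 0.17 ± 0.045 (adjusted p = 0.0171).

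CNOT3, of the NOT module, went the other way. It had 7.304, 7.55 and 7.63 FPKM under BPQD, 6.21, 6.44 and 6.38 FPKM under TiO2 and 7.93, 7.97 and 8.11 FPKM in control, all TiO2 libraries being below all others. It fell under TiO2 by -0.29 ± 0.028 (adjusted p = 0.000182) and was called lower by -0.084 ± 0.028 (adjusted p = 0.0414) under BPQD, a call lost in 13 of 15 alternatives, among them without BPQD replicates 1, 2 and 3, without TiO2 replicates 2 and 3 and without control replicates 1, 2 and 3 (highest adjusted p = 0.355). The anti-proliferative adaptors TOB1 and TOB2, which connect the deadenylases to poly(A)-binding protein, were lower as well. TOB2 had 14.03, 14.997 and 15.2 FPKM under BPQD, 15.1, 15.002 and 14.1 FPKM under TiO2 and 18.7, 18.4 and 18.8 FPKM in control. Both exposed groups lay below all control libraries, with changes of -0.32 ± 0.039 (adjusted p = 0.000432) under BPQD and -0.32 ± 0.039 (adjusted p = 0.00056) under TiO2. TOB1 had 29.5, 29.5 and 30.6 FPKM under BPQD, 34.6, 34.3 and 33.7 FPKM under TiO2 and 36.5, 34.6 and 34.2 FPKM in control. TOB1 fell under BPQD only by the test, -0.23 ± 0.030 (adjusted p = 0.000652), and the direct comparison with TiO2 gave -0.19 ± 0.030 (adjusted p = 0.00187). CNOT2 and CNOT9 passed no test. CNOT9, which binds the microRNA factor GW182, took separate high and low values within every group, with 28.2, 15.4 and 14.9 FPKM under BPQD, 17.2, 24.7 and 25.99 FPKM under TiO2 and 13.1, 13.2 and 25.5 FPKM in control. Of the other calls of this complex, CNOT10 was lost without BPQD replicate 1 (highest adjusted p = 0.054) and CNOT4 without BPQD replicate 1 and without control replicate 1 (highest adjusted p = 0.0561); between the materials, CNOT4 was lost without BPQD replicate 1 and without TiO2 replicates 1 and 3 (highest adjusted p = 0.0604) and CNOT7 without BPQD replicates 1 and 3 and without TiO2 replicate 3 (highest adjusted p = 0.0538).

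PAN2, the nuclease of the PAN2-PAN3 deadenylase (chr12:56316223-56334053, minus strand), showed the largest called change of any member. It had 6.49, 6.84 and 6.65 FPKM under BPQD, 3.88, 3.697 and 3.59 FPKM under TiO2 and 4.28, 4.17 and 4.13 FPKM in control. The 3 groups did not overlap: every BPQD library was above, and every TiO2 library below, every control library. PAN2 averaged 6.66 ± 0.178 FPKM under BPQD, 3.73 ± 0.148 FPKM under TiO2 and 4.19 ± 0.0753 FPKM in control (SD, n = 3 each). The change was 0.56 ± 0.035 (adjusted p = 2.27e-05) under BPQD and -0.14 ± 0.035 (adjusted p = 0.0177) under TiO2, and between the materials it was 0.70 ± 0.035 (adjusted p = 9.70e-06). The call under TiO2 was lost without TiO2 replicates 2 and 3 and without control replicate 1 (highest adjusted p = 0.0577). PAN3, the adaptor that ties PAN2 to poly(A)-binding protein, had 3.26, 3.66 and 3.398 FPKM under BPQD, 3.14, 3.08 and 3.08 FPKM under TiO2 and 3.03, 2.71 and 3.09 FPKM in control. It rose under BPQD by 0.17 ± 0.050 (adjusted p = 0.0271), a call lost in 6 of 15 alternatives, among them without BPQD replicates 2 and 3 and without control replicate 2 (highest adjusted p = 0.082). PARN, a poly(A) ribonuclease that also trims non-coding RNAs, had 6.85, 5.703 and 7.14 FPKM under BPQD, 6.04, 6.21 and 5.31 FPKM under TiO2 and 4.92, 4.94 and 5.04 FPKM in control. Both exposed groups were above control, and the rise passed under BPQD, 0.34 ± 0.080 (adjusted p = 0.0108), but not under TiO2, 0.20 ± 0.080 (adjusted p = 0.0912), where it was called higher in 2 of 15 alternatives, with only the 6 libraries compared and without BPQD replicate 2 (0.20 in both).

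In the decapping and 5′ decay group of 11 genes, 5 rose and 0 fell under BPQD, and 2 rose and 2 fell under TiO2. The shares under TiO2, 18.2% in each direction, were near the 17.3% higher and 20.5% lower of all tested genes. Under BPQD 45.5% rose, against 20.6% of all tested genes higher and 23.4% lower. The median was 0.094 under BPQD and -0.029 under TiO2. The 5 that rose were XRN1, LSM14A, DDX6, DCP1A and EDC3. XRN1, the cytoplasmic exonuclease that digests decapped mRNA, had 5.75, 5.69 and 5.57 FPKM under BPQD, 4.11, 4.25 and 3.91 FPKM under TiO2 and 4.15, 4.31 and 4.11 FPKM in control. It rose by 0.36 ± 0.035 (adjusted p = 0.000162) under BPQD, and under TiO2 the change was -0.029 ± 0.035 (adjusted p = 0.567), with overlapping libraries. Its nuclear relative XRN2, which also ends transcription by RNA polymerase II, had 35.3, 33.4 and 34.9 FPKM under BPQD, 36.2, 38.02 and 37.8 FPKM under TiO2 and 33.3, 32.8 and 32.9 FPKM in control. XRN2 rose under TiO2 by 0.17 ± 0.028 (adjusted p = 0.00238), and under BPQD it did not pass, 0.065 ± 0.028 (adjusted p = 0.102). XRN2 was called higher under BPQD in 3 of 15 alternatives, with values rescaled to TPM (0.12, adjusted p = 0.0119), with median centring (0.088, adjusted p = 0.0406) and without BPQD replicate 2 (0.087, adjusted p = 0.047). Between the materials XRN1 differed by 0.39 ± 0.035 (adjusted p = 0.00014) and XRN2 by -0.11 ± 0.028 (adjusted p = 0.0183); the XRN2 difference was lost in 4 of 15 alternatives, with values rescaled to TPM, without BPQD replicate 2 and without TiO2 replicates 2 and 3 (highest adjusted p = 0.0915).

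DCP2, the decapping enzyme itself, had the widest spread of all members, with 5.18, 5.302 and 1.47 FPKM under BPQD, 3.32, 1.55 and 3.499 FPKM under TiO2 and 3.98, 1.43 and 0.987 FPKM in control. High and low libraries occurred in every group, and neither 0.67 ± 0.48 (adjusted p = 0.297) under BPQD nor 0.35 ± 0.48 (adjusted p = 0.61) under TiO2 passed. Of its activators, DCP1A had 7.17, 7.16 and 6.86 FPKM under BPQD and 6.25, 6.65 and 6.56 FPKM in control and rose by 0.11 ± 0.034 (adjusted p = 0.037), and DCP1B, at 0.922 to 1.29 FPKM in all libraries, passed no test. The helicase DDX6, which represses translation and activates decapping, had 11.2, 11.01 and 10.6 FPKM under BPQD, 8.57, 9.47 and 8.996 FPKM under TiO2 and 9.84, 9.83 and 9.69 FPKM in control. DDX6 rose under BPQD by 0.14 ± 0.037 (adjusted p = 0.016), and its difference between the materials was 0.25 ± 0.037 (adjusted p = 0.00145). LSM14A, its partner in processing bodies, had 15.9, 15.8 and 15.8 FPKM under BPQD, 13.8, 13.95 and 14.1 FPKM under TiO2 and 13.2, 14.1 and 12.9 FPKM in control, a rise of 0.23 ± 0.032 (adjusted p = 0.00104).

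The enhancers of decapping, EDC3 and EDC4, were both lower under TiO2 than under BPQD. EDC3 (chr15:74630558-74696292, minus strand) had 10.6, 10.8 and 10.8 FPKM under BPQD, 9.31, 9.22 and 9.09 FPKM under TiO2 and 9.73, 10.4 and 9.89 FPKM in control, and the 3 groups did not overlap. It was called higher under BPQD, 0.094 ± 0.028 (adjusted p = 0.0296), and lower under TiO2, -0.11 ± 0.028 (adjusted p = 0.0213); the call under BPQD was lost in 8 of 15 alternatives, among them without BPQD replicates 1, 2 and 3 and without control replicates 1 and 3 (highest adjusted p = 0.0901), the call under TiO2 in 4 of 15, among them without TiO2 replicates 2 and 3 and without control replicate 2 (highest adjusted p = 0.0647). Between the materials EDC3 differed by 0.20 ± 0.028 (adjusted p = 0.00118). EDC4, a scaffold of the decapping complex, had 14.02, 13.97 and 13.7 FPKM under BPQD, 12.03, 11.8 and 12.6 FPKM under TiO2 and 12.9, 13.5 and 13.3 FPKM in control. EDC4 fell under TiO2 by -0.11 ± 0.032 (adjusted p = 0.0256), a call lost in 7 of 15 alternatives, among them without TiO2 replicates 1 and 2 and without control replicates 2 and 3 (highest adjusted p = 0.0802), and it differed between the materials by 0.18 ± 0.032 (adjusted p = 0.00334). PATL1, a bridge between DDX6, the Lsm ring and decapping, showed the opposite order, with 17.7, 18.5 and 18.1 FPKM under BPQD, 21.1, 20.6 and 21.2 FPKM under TiO2 and 18.97, 18.8 and 19.04 FPKM in control. PATL1 rose under TiO2 by 0.14 ± 0.024 (adjusted p = 0.00303) and differed by -0.20 ± 0.024 (adjusted p = 0.000518) between the materials. LSM1 passed no test. The DCP1A call was lost in 9 of 15 alternatives, among them without BPQD replicates 1 and 2, without TiO2 replicates 1 and 2 and without control replicates 1 and 3 (highest adjusted p = 0.11), and the DDX6 call under BPQD without BPQD replicate 1 (highest adjusted p = 0.0533).

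**Figure D2:**
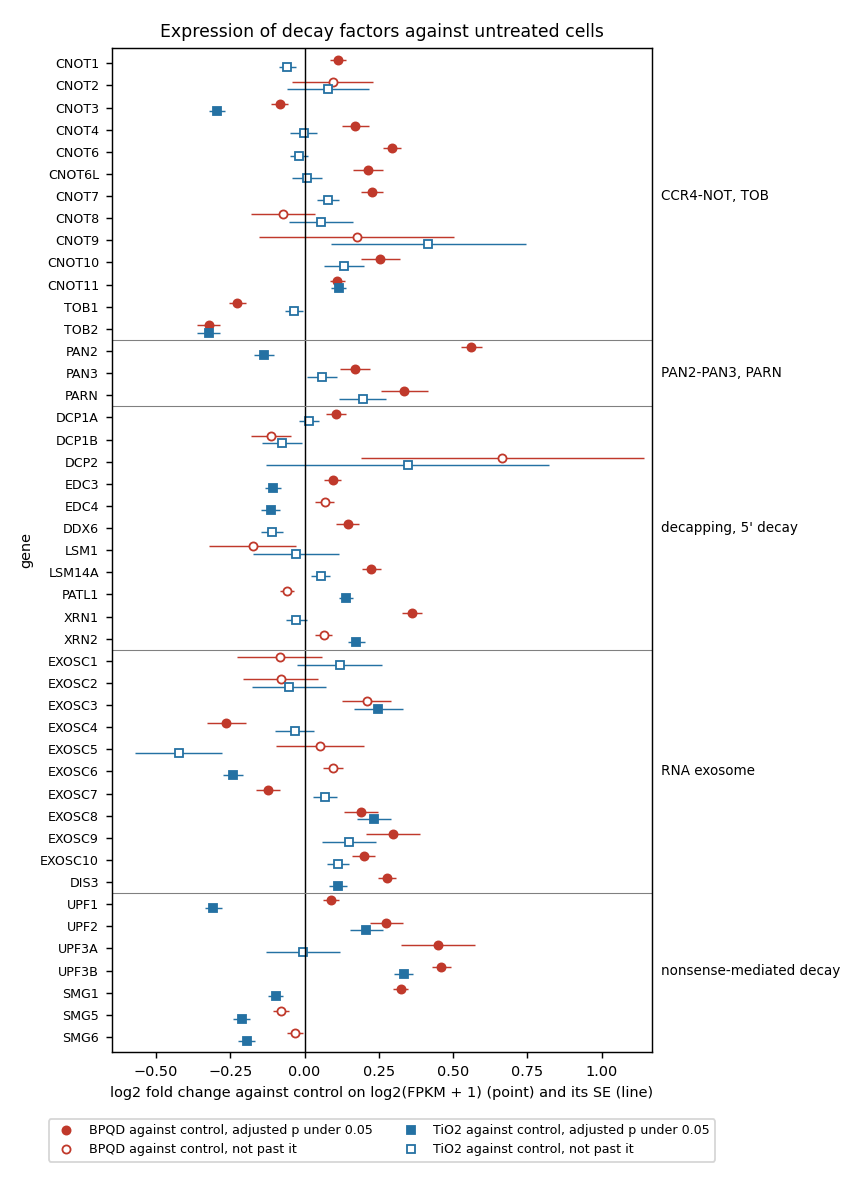
Log2 fold change (point) and SE (line) of each of the 45 decay factors against control, for BPQD (red circles) and TiO2 (blue squares), with filled symbols at adjusted p under 0.05. PAN2, EDC3, UPF1 and SMG1 carry a filled red symbol right of 0 and a filled blue one left of it.

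The 11 exosome genes were mixed. Under BPQD 4 rose and 2 fell, with a median of 0.096, and under TiO2 3 rose and 1 fell, with a median of 0.11. Between the materials 3 were higher and 2 lower under BPQD. Under BPQD 36.4% rose and 18.2% fell, against 20.6% and 23.4% of all tested genes. Under TiO2 27.3% rose and 9.09% fell, against 17.3% and 20.5%. Between the materials the 18.2% lower were near the 18.6% of all genes, and 27.3% were higher, against 19.0%. Both catalytic subunits rose under BPQD. DIS3, a processive 3′ to 5′ nuclease, had 10.7, 10.4 and 10.6 FPKM under BPQD, 9.12, 9.46 and 9.41 FPKM under TiO2 and 8.396, 8.84 and 8.41 FPKM in control. All BPQD libraries were above all TiO2 libraries, and those above all control libraries, with 0.28 ± 0.030 (adjusted p = 0.00025) under BPQD and 0.11 ± 0.030 (adjusted p = 0.0197) under TiO2. EXOSC10, the nuclear distributive nuclease, had 23.99, 22.5 and 23.2 FPKM under BPQD, 22.2, 21.9 and 21.4 FPKM under TiO2 and 19.1, 20.9 and 20.4 FPKM in control. It rose under BPQD by 0.20 ± 0.038 (adjusted p = 0.00403), and under TiO2 0.11 ± 0.038 (adjusted p = 0.0512) fell short of the threshold although the libraries did not overlap, and it was called in 3 of 15 alternatives, with values rescaled to TPM, with median centring and without control replicate 2 (0.12 to 0.14).

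Of the 6 subunits of the barrel, EXOSC8 and EXOSC9 rose and EXOSC4 and EXOSC7 fell under BPQD. EXOSC9 had 10.8, 12.6 and 11.5 FPKM under BPQD, 11.7, 9.09 and 10.5 FPKM under TiO2 and 9.73, 9.42 and 8.69 FPKM in control, a change of 0.30 ± 0.090 (adjusted p = 0.0299). EXOSC8 had 9.73, 9.43 and 8.86 FPKM under BPQD, 9.001, 9.73 and 10.3 FPKM under TiO2 and 8.08, 8.497 and 7.64 FPKM in control and rose under both materials, by 0.19 ± 0.057 (adjusted p = 0.0304) under BPQD and 0.23 ± 0.057 (adjusted p = 0.015) under TiO2. EXOSC4 had 15.1, 15.2 and 12.9 FPKM under BPQD, 16.7, 16.95 and 17.4 FPKM under TiO2 and 16.5, 18.6 and 17.2 FPKM in control, with all BPQD libraries lowest, and fell by -0.26 ± 0.066 (adjusted p = 0.014). EXOSC7 had 8.102, 7.795 and 7.38 FPKM under BPQD, 9.07, 8.84 and 9.09 FPKM under TiO2 and 8.32, 8.93 and 8.35 FPKM in control. It was called lower by -0.12 ± 0.040 (adjusted p = 0.0404), a call lost in 13 of 15 alternatives, among them without BPQD replicates 2 and 3, without TiO2 replicates 1, 2 and 3 and without control replicates 1, 2 and 3 (highest adjusted p = 0.199). EXOSC6 fell under TiO2, with 3.83, 3.904 and 3.72 FPKM under BPQD, 2.703, 2.92 and 2.81 FPKM under TiO2 and 3.57, 3.44 and 3.51 FPKM in control. The change was -0.24 ± 0.035 (adjusted p = 0.00133) under TiO2 and 0.34 ± 0.035 (adjusted p = 0.000252) between the materials. EXOSC5 had 17.7, 18.5 and 13.8 FPKM under BPQD, 11.6, 11.5 and 11.8 FPKM under TiO2 and 19.6, 13.1 and 15.7 FPKM in control; its control libraries were spread wide, it passed neither test against control, and its difference of 0.48 ± 0.15 (adjusted p = 0.0368) between the materials was lost in 8 of 15 alternatives, among them without BPQD replicates 1 and 2, without TiO2 replicates 1, 2 and 3 and without control replicate 3 (highest adjusted p = 0.109).

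Of the RNA-binding cap subunits, EXOSC3 was called higher under TiO2 and EXOSC1 and EXOSC2 passed no test. EXOSC3 had 7.43, 6.098 and 7.37 FPKM under TiO2 and 5.49, 6.29 and 5.31 FPKM in control, a change of 0.25 ± 0.083 (adjusted p = 0.048) that was lost in 10 of 15 alternatives, among them without BPQD replicates 1, 2 and 3, without TiO2 replicates 1 and 3 and without control replicates 1 and 3 (highest adjusted p = 0.138). The call of EXOSC8 under BPQD was lost in 6 of 15, among them without BPQD replicates 1 and 2 and without control replicates 1 and 3 (highest adjusted p = 0.0937), and that of EXOSC9 in 6 of 15, among them without BPQD replicates 2 and 3 and without control replicates 2 and 3 (highest adjusted p = 0.0924). DIS3 under TiO2 was lost without TiO2 replicates 2 and 3 and without control replicates 1 and 3 (highest adjusted p = 0.063), and EXOSC4 between the materials in 6 of 15, among them without BPQD replicate 3 and without TiO2 replicates 1, 2 and 3 (highest adjusted p = 0.0804).

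The NMD factors were divided between the materials. Of these 7 genes, 5 rose and 0 fell under BPQD, with a median of 0.28, whereas 2 rose and 4 fell under TiO2, with a median of -0.097. In the direct comparison 6 of 7 were higher under BPQD and 0 lower, with a median of 0.16. Of all tested genes, 20.6% rose and 23.4% fell under BPQD, and 17.3% rose and 20.5% fell under TiO2. Between the materials 19.0% of all genes were higher under BPQD and 18.6% lower. UPF1, the helicase at the centre of the pathway (chr19:18831938-18868236, plus strand), had 15.6, 15.2 and 15.6 FPKM under BPQD, 11.5, 11.6 and 11.5 FPKM under TiO2 and 14.9, 14.6 and 14.04 FPKM in control. Every TiO2 library was below every other library, while the BPQD libraries lay just above the control libraries. UPF1 averaged 15.5 ± 0.212 FPKM under BPQD, 11.5 ± 0.0869 FPKM under TiO2 and 14.5 ± 0.433 FPKM in control (SD, n = 3 each). It fell under TiO2 by -0.31 ± 0.027 (adjusted p = 0.000142) and was called higher under BPQD by 0.089 ± 0.027 (adjusted p = 0.0313), a call lost in 7 of 15 alternatives, among them without BPQD replicates 1 and 3 and without control replicates 2 and 3 (highest adjusted p = 0.0908). Between the materials UPF1 differed by 0.40 ± 0.027 (adjusted p = 3.78e-05).

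SMG1, the kinase that phosphorylates UPF1 (chr16:18804853-18926454, minus strand), had 9.201, 9.02 and 9.15 FPKM under BPQD, 6.48, 6.67 and 6.53 FPKM under TiO2 and 7.08, 7.19 and 6.99 FPKM in control. The groups did not overlap, BPQD being highest and TiO2 lowest. Its changes were 0.32 ± 0.025 (adjusted p = 5.82e-05) under BPQD, -0.097 ± 0.025 (adjusted p = 0.0185) under TiO2 and 0.42 ± 0.025 (adjusted p = 1.93e-05) between the materials; the call under TiO2 was lost without TiO2 replicates 1 and 3 and without control replicate 2 (highest adjusted p = 0.0602). SMG1 has near-identical pseudogene copies, between which the authors' counting could split reads, so its values are uncertain. The copy SMG1P1, looked up after the SMG1 values had been seen, had 10.1, 10.9 and 10.2 FPKM under BPQD, 5.26, 6.18 and 6.49 FPKM under TiO2 and 6.33, 6.98 and 6.65 FPKM in control, with all BPQD libraries highest. Of the 6 pseudogenes tested, only SMG1P1 passed under BPQD, 0.58 ± 0.070 (adjusted p = 0.000448), and none of the 6 passed under TiO2. Between the materials SMG1P1, 0.71 ± 0.070 (adjusted p = 0.000204), and SMG1P6, 0.96 ± 0.23 (adjusted p = 0.0135), passed.

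**Figure D3:**
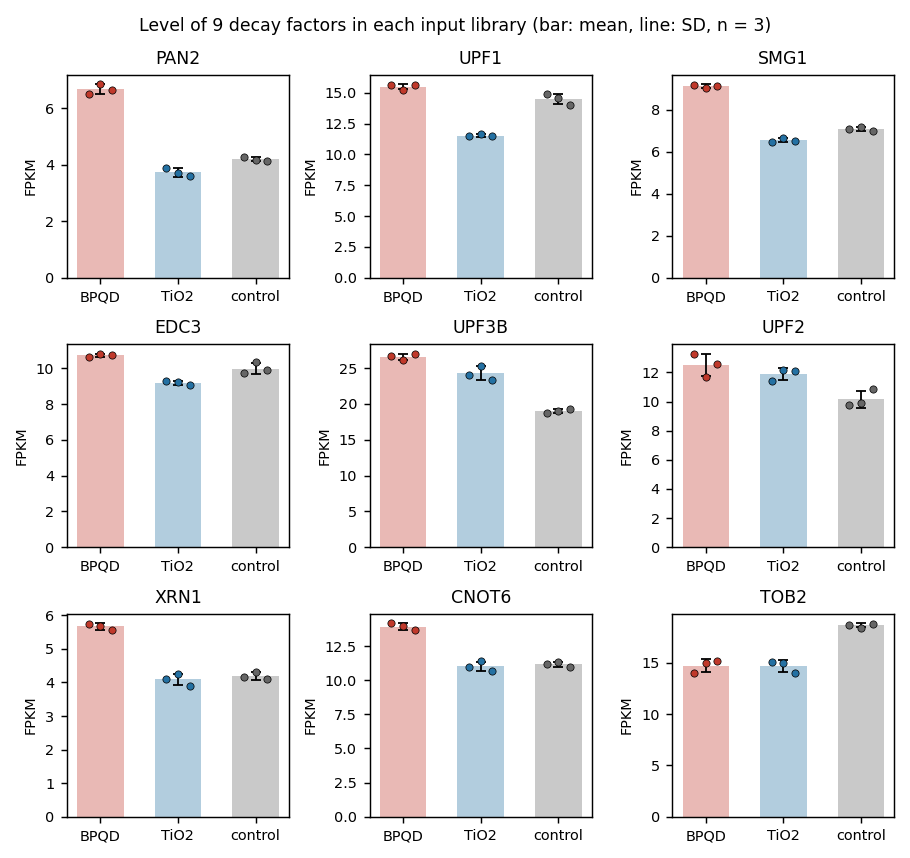
Level in FPKM of 9 decay factors in each input library (points), with the mean (bar) and SD (line) of the 3 libraries per group, in the order BPQD, TiO2, control. PAN2, UPF1, SMG1 and EDC3 have their lowest bar under TiO2, UPF3B and UPF2 are above control under both materials, XRN1 and CNOT6 have their highest bar under BPQD, and TOB2 is below control under both.

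UPF2 and UPF3B, which link UPF1 to the exon junction complex, rose under both materials. UPF3B (chrX:119805311-119852998, minus strand) had 26.7, 26.1 and 26.96 FPKM under BPQD, 24.1, 25.3 and 23.4 FPKM under TiO2 and 18.7, 19.1 and 19.3 FPKM in control. All exposed libraries were above all control libraries, with 0.46 ± 0.032 (adjusted p = 3.80e-05) under BPQD and 0.33 ± 0.032 (adjusted p = 0.00021) under TiO2. The difference between the materials, 0.13 ± 0.032 (adjusted p = 0.0179), was lost without BPQD replicates 1 and 3 and without TiO2 replicates 1 and 3 (highest adjusted p = 0.0571). UPF2 had 13.2, 11.7 and 12.6 FPKM under BPQD, 11.4, 12.2 and 12.1 FPKM under TiO2 and 9.75, 9.89 and 10.8 FPKM in control, with rises of 0.28 ± 0.054 (adjusted p = 0.00469) under BPQD and 0.21 ± 0.054 (adjusted p = 0.0193) under TiO2; the call under TiO2 was lost without TiO2 replicates 2 and 3 and without control replicates 1 and 2 (highest adjusted p = 0.0619). UPF3A, the paralog of UPF3B and a weaker activator of NMD, had 10.3, 13.3 and 14.3 FPKM under BPQD, 9.01, 9.39 and 8.28 FPKM under TiO2 and 10.3, 8.15 and 8.45 FPKM in control. UPF3A rose under BPQD by 0.45 ± 0.12 (adjusted p = 0.0208), and BPQD replicate 1 was level with control replicate 1. That call was lost in 5 of 15 alternatives, among them without BPQD replicates 2 and 3 and without control replicates 2 and 3 (highest adjusted p = 0.0683), and the difference between the materials, 0.45 ± 0.12 (adjusted p = 0.0231), in 5 of 15, among them without BPQD replicates 2 and 3 and without TiO2 replicates 1 and 3 (highest adjusted p = 0.0722).

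SMG5 and SMG6 act after UPF1 has been phosphorylated, SMG6 as the endonuclease that cuts near the stop codon. SMG6 had 3.14, 3.18 and 3.17 FPKM under BPQD, 2.72, 2.74 and 2.69 FPKM under TiO2 and 3.24, 3.27 and 3.26 FPKM in control. SMG5 had 19.6, 19.99 and 19.2 FPKM under BPQD, 17.5, 17.7 and 18.1 FPKM under TiO2 and 20.5, 20.5 and 21.3 FPKM in control. Both were lowest in the TiO2 libraries. SMG6 fell under TiO2 by -0.20 ± 0.028 (adjusted p = 0.00127) and SMG5 by -0.21 ± 0.028 (adjusted p = 0.000844), while under BPQD -0.032 ± 0.028 (adjusted p = 0.392) for SMG6 and -0.079 ± 0.028 (adjusted p = 0.0504) for SMG5 did not pass.

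Across all roles, 4 members were called higher under BPQD and lower under TiO2: PAN2, EDC3, UPF1 and SMG1. Members higher under both numbered 5 (CNOT11, EXOSC8, DIS3, UPF2 and UPF3B), and CNOT3 and TOB2 were lower under both. A further 18 were called against control under BPQD only, 7 under TiO2 only and 9 under neither. Both comparisons share the control libraries, so these counts are not independent of each other. Over all tested genes 44.0% were called under BPQD and 37.7% under TiO2. These classes were not counted over all genes, so no excess among the members can be read from them. In no comparison were 8 members called. Within groups the members varied little: the median coefficient of variation was 3.20% under BPQD, 3.38% under TiO2 and 3.45% in control. A limit of 20%, chosen after the values had been seen, was passed by 5 members in at least 1 group, CNOT2, CNOT9, DCP2, LSM1 and EXOSC5, and 4 of these were called nowhere.

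XRN2 (34.96 FPKM), TOB1 (33.05 FPKM) and CNOT1 (32.5 FPKM) had the highest means of the 45 genes over the 9 libraries. They are not apart beyond their spread, with libraries from 32.8 to 38.02 FPKM for XRN2, 29.5 to 36.5 FPKM for TOB1 and 30.2 to 35.5 FPKM for CNOT1. Their order also changed by group: CNOT1 was highest under BPQD (34.7 FPKM), XRN2 under TiO2 (37.4 FPKM) and TOB1 in control (35.1 FPKM). DCP1B (1.12 FPKM over the 9 libraries) had the lowest mean in each group. CNOT6L (2.33 FPKM) and DCP2 (2.97 FPKM) came next, but their libraries overlapped, and DCP2 averaged 3.98 FPKM under BPQD, above EXOSC6, PAN3 and SMG6 there.

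Genes that act beside the members were read from lists chosen by role. The counts include calls that were lost in some of the 15 alternatives, and not all of these genes are named. Their counts stand against the shares of all tested genes, 20.6% higher and 23.4% lower under BPQD, 17.3% and 20.5% under TiO2, and 19.0% and 18.6% between the materials. Of 14 other NMD and exon junction factors, 10 rose and 0 fell under BPQD, 5 rose and 2 fell under TiO2, and 4 were higher and 0 lower under BPQD than under TiO2. Medians against control were 0.15 under BPQD and 0.054 under TiO2. The release factor ETF1 had 51.6, 51.2 and 50.6 FPKM under BPQD, 52.3, 52.5 and 51.2 FPKM under TiO2 and 40.5, 42.2 and 44.6 FPKM in control, rising by 0.26 ± 0.034 (adjusted p = 0.000601) under BPQD and 0.29 ± 0.034 (adjusted p = 0.000522) under TiO2. DHX34, a helicase that promotes UPF1 phosphorylation, had 6.798, 7.31 and 7.27 FPKM under BPQD and 5.22, 5.36 and 5.41 FPKM under TiO2, a difference of 0.36 ± 0.038 (adjusted p = 0.00028) between the materials. RNPS1, of the exon junction complex, was called higher under BPQD, 0.11 ± 0.031 (adjusted p = 0.0178), and lower under TiO2, -0.17 ± 0.031 (adjusted p = 0.00395). Its call under BPQD was lost without BPQD replicates 2 and 3 and without control replicates 1 and 2 (highest adjusted p = 0.0583). Of the other rises under BPQD, SMG9 was lost in 9 of 15 alternatives, PNRC2 in 7, MAGOHB in 6 and NBAS in 3. Of the rises under TiO2, SMG8 was lost in 10, PNRC2 in 9 and NBAS in 7.

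Among 12 known NMD targets, 4 rose and 0 fell under BPQD, 2 rose and 0 fell under TiO2, and 2 were higher and 2 lower under BPQD than under TiO2. The rises under TiO2, 16.7% of the list, were near the share of all genes. Of the rises under BPQD, that of SNHG1 was lost in 10 of 15 alternatives. GADD45A, a stress gene, had 13.9, 13.9 and 12.5 FPKM under BPQD, 9.52, 11.99 and 12.5 FPKM under TiO2 and 6.23, 8.46 and 8.28 FPKM in control, and rose by 0.75 ± 0.13 (adjusted p = 0.00238) under BPQD and 0.51 ± 0.13 (adjusted p = 0.0158) under TiO2. The call under TiO2 was lost without TiO2 replicates 2 and 3 (highest adjusted p = 0.054). UPP1, a uridine phosphorylase, rose under TiO2 by 0.81 ± 0.050 (adjusted p = 3.23e-05) and was lower under BPQD than under TiO2, -0.68 ± 0.050 (adjusted p = 5.11e-05). DDIT3, a stress transcription factor, was called lower under BPQD than under TiO2 by -0.75 ± 0.25 (adjusted p = 0.046). That call was lost in 9 of 15 alternatives, among them without any single BPQD or TiO2 library and without control replicate 1 (highest adjusted p = 0.131).

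Of 16 SKI and exosome cofactors, 7 rose and 1 fell under BPQD, 5 rose and 3 fell under TiO2, and 4 were higher and 1 lower under BPQD than under TiO2. ZCCHC8, which brings the exosome to nuclear transcripts, had 8.02, 8.15 and 7.87 FPKM under BPQD, 6.03, 5.602 and 5.63 FPKM under TiO2 and 5.71, 5.64 and 5.87 FPKM in control, a rise of 0.42 ± 0.034 (adjusted p = 7.21e-05) under BPQD. MPHOSPH6, a nuclear exosome cofactor, had 6.92, 8.201 and 8.39 FPKM under BPQD, 9.94, 10.5 and 10.6 FPKM under TiO2 and 6.65, 7.62 and 8.42 FPKM in control, and rose under TiO2 by 0.41 ± 0.089 (adjusted p = 0.009). ZCCHC7, of the nucleolar TRAMP-like complex, rose by 0.33 ± 0.041 (adjusted p = 0.000493) under BPQD and 0.38 ± 0.041 (adjusted p = 0.000345) under TiO2. Of the 6 other genes of the Lsm ring, 0 rose and 3 fell under each material, and 1 was lower between the materials. Of the falls under TiO2, that of LSM6 was lost in 13 of 15 alternatives. LSM2 had 41.4, 39.2 and 39.8 FPKM under BPQD, 42.3, 41.4 and 45.9 FPKM under TiO2 and 52.8, 53.3 and 52.1 FPKM in control, and fell by -0.39 ± 0.040 (adjusted p = 0.000206) under BPQD and -0.28 ± 0.040 (adjusted p = 0.00121) under TiO2. LSM7 was called lower by -0.16 ± 0.049 (adjusted p = 0.0318) under BPQD and -0.18 ± 0.049 (adjusted p = 0.0249) under TiO2. The call under BPQD was lost in 6 of 15 alternatives, among them without BPQD replicates 1 and 3 and without control replicate 2 (highest adjusted p = 0.127), and that under TiO2 in 4, among them without TiO2 replicates 1 and 2 and without control replicate 2 (highest adjusted p = 0.077). LSM5 was positive under both materials, at 0.080 and 0.019, and passed no test. These 6 proteins also belong to the nuclear ring that binds U6 RNA.

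Of 8 other deadenylases and BTG proteins, 2 rose and 2 fell under BPQD, 1 rose and 1 fell under TiO2, and 1 was higher and 1 lower between the materials, shares near or below those of all genes. BTG2, a relative of the TOB proteins and a p53 target, had 6.59, 6.55 and 6.88 FPKM under BPQD, 7.24, 7.15 and 6.55 FPKM under TiO2 and 12.4, 11.9 and 12.2 FPKM in control, and fell, by -0.78 ± 0.040 (adjusted p = 1.11e-05) under BPQD and -0.72 ± 0.040 (adjusted p = 1.79e-05) under TiO2. Its relative BTG3 had 10.5, 9.06 and 11.2 FPKM under BPQD, 10.4, 13.2 and 10.9 FPKM under TiO2 and 8.39, 8.15 and 8.89 FPKM in control, and rose under TiO2 by 0.39 ± 0.097 (adjusted p = 0.0153), a call lost without control replicate 2 (adjusted p = 0.05005).

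Of 17 tested genes of microRNA silencing and AU-rich element binding, 5 rose and 3 fell under BPQD, and 1 rose and 5 fell under TiO2. Between the materials 8 were higher and 3 lower under BPQD. AGO2, the slicing Argonaute, had 11.4, 11.3 and 11.4 FPKM under BPQD, 7.61, 7.66 and 7.87 FPKM under TiO2 and 8.63, 8.69 and 8.46 FPKM in control. AGO2 was called higher under BPQD, 0.37 ± 0.025 (adjusted p = 2.98e-05), lower under TiO2, -0.14 ± 0.025 (adjusted p = 0.00351), and different between the materials, 0.51 ± 0.025 (adjusted p = 8.04e-06). ZFP36L1, which binds AU-rich elements and recruits CCR4-NOT, had 9.66, 11.5 and 11.8 FPKM under BPQD, 16.02, 17.01 and 15.5 FPKM under TiO2 and 14.2, 15.03 and 15.05 FPKM in control and fell under BPQD by -0.40 ± 0.072 (adjusted p = 0.00316). RC3H1 (Roquin-1), which binds stem-loops in mRNAs, had 2.204, 2.12 and 2.09 FPKM under BPQD and 1.61, 0.861 and 1.59 FPKM under TiO2, a difference of 0.43 ± 0.12 (adjusted p = 0.0284), lost in 5 of 15 alternatives, among them without BPQD replicates 1, 2 and 3 (highest adjusted p = 0.0756). Of 4 m6A readers that bind decay factors, YTHDC2, a partner of XRN1, rose under BPQD by 0.24 ± 0.035 (adjusted p = 0.00111), and 0 passed under TiO2. YTHDC2 and YTHDF1 were higher under BPQD than under TiO2, YTHDF1 by 0.091 ± 0.025 (adjusted p = 0.0241), a call lost without BPQD replicates 1 and 3 and without TiO2 replicates 1 and 3 (highest adjusted p = 0.0748). YTHDF2, named after its values had been seen, had 5.96, 10.5 and 25.7 FPKM under BPQD, 4.46, 7.93 and 4.04 FPKM under TiO2 and 4.36, 6.66 and 6.98 FPKM in control, so that a single BPQD library stood far above the rest, and 0.90 ± 0.47 (adjusted p = 0.162) did not pass.

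The methylation of the members' own mRNAs was read from the authors' deposited table of peak changes, 1 for each material, which gives 1 log2 fold change of enrichment and 1 p per peak and no value per library. No error can be attached to these values. The authors' deposited table for BPQD held 44 peaks in 32 members, of which 24 were higher, 13 lower and 7 not past the authors' p under 0.05, against 37.7% higher, 27.1% lower and 64.8% in either direction of all 14903 peaks. For TiO2 the authors' deposited table held 36 peaks in 24 members, of which 20 were higher, 8 lower and 8 not past it, against 40.3%, 23.8% and 64.1% of all 12891 peaks. Of the 45 members, 35 had a peak in either table, 21 in both and 10 in neither, among them XRN1, XRN2, PARN and DCP1A. Peaks have a start and an end but no strand, span introns where they are wide, and are placed by the authors' annotation. By that annotation 24 of 44 member peaks under BPQD and 23 of 36 under TiO2 lay in a 3′ UTR, against 45.4% and 46.9% of all peaks.

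The most negative change of a peak found in both tables was in UPF3A. Its peak at the transcript start, chr13:114281601-114282129, annotated as 5′ UTR, had log2 fold changes of -0.797 under BPQD (p = 4.57e-09) and -0.793 under TiO2 (p = 1.78e-09) in the authors' deposited tables. UPF3A mRNA rose under BPQD and not under TiO2, as given above. UPF3B held the smallest p under BPQD: the authors' deposited table gave its peak at chrX:119834638-119843212 a change of -0.205 (p = 6.31e-11), and the authors' deposited table for TiO2 gave the same peak -0.0414 (p = 0.0955). The peak over the UPF3B start shown above, chrX:119852848-119852998, had -0.185 (p = 0.101) in the authors' deposited table for BPQD. Of the other starts with GGAC, each was under a peak of 1 table: the authors' deposited table for BPQD gave the CNOT11 peak at chr2:101252886-101253094 a change of -0.688 (p = 0.0038), and the authors' deposited table for TiO2 gave the CNOT6 peak at chr5:180494379-180495545 a change of 0.321 (p = 0.0309).

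DDX6 had peaks of both directions in 1 transcript. In the authors' deposited tables its 3′ UTR peak at chr11:118751504-118754743, ending at 118754773 under TiO2, changed by 0.226 under BPQD (p = 2.95e-08) and 0.304 under TiO2 (p = 1.59e-13). A second one near the 3′ end, chr11:118747793-118748182, changed by -0.618 under BPQD (p = 7.59e-05) and by -0.554 under TiO2 (p = 0.000324) in the authors' deposited tables. Another, annotated as 5′ UTR at chr11:118786031-118786690, was in the authors' deposited table for TiO2 alone, higher by 0.429 (p = 7.94e-12). Each DDX6 peak found in both tables had the same direction under both materials.

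Further peaks of NMD factors were shared by both tables. SMG5 had a 3′ UTR peak at chr1:156249224-156249554 that was lower by -0.304 under BPQD (p = 0.000912) and by -0.452 under TiO2 (p = 2.51e-07) in the authors' deposited tables. UPF2 had a 3′ UTR peak at chr10:11920529-11921276, starting at 11920559 under TiO2, that was higher by 0.240 (p = 2.24e-05) under BPQD and 0.253 (p = 1.15e-05) under TiO2 in the authors' deposited tables. For SMG1 the authors' deposited tables gave a 3′ UTR peak at chr16:18808720-18811853 with 0.163 under BPQD (p = 2.63e-05) and, slightly wider, with 0.236 under TiO2 (p = 7.41e-09). UPF1 had a peak at its start, chr19:18831938-18833256, that was lower by -0.294 (p = 0.0186) in the authors' deposited table for BPQD, and no peak in that for TiO2. NMD factors held 10 of the 44 member peaks under BPQD and 11 of the 36 under TiO2, with 4 higher and 5 lower under each material. Of all peaks, 37.7% were higher and 27.1% lower under BPQD, and 40.3% and 23.8% under TiO2. The lower peaks of NMD factors under TiO2 include an overlapping pair in SMG6.

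TOB1, a gene with a wide peak over most of its length at chr17:50863201-50867948, had 0.121 under BPQD (p = 2.04e-06) and, to 50867978, 0.187 under TiO2 (p = 6.31e-15) in the authors' deposited tables. TOB2 had 0.151 (p = 2e-05) at chr22:41436038-41446801 in the authors' deposited table for TiO2. EXOSC6 gained at its start, chr16:70250120-70251940, by 0.371 (p = 1.82e-10), and EXOSC2 in its 3′ UTR, chr9:130702207-130704894, by 0.145 (p = 6.46e-10), both in the authors' deposited table for TiO2. EXOSC6 mRNA fell under TiO2, while EXOSC2 mRNA passed no test. LSM14A had a peak at the 3′ end, chr19:34229127-34229246, with -0.532 under BPQD (p = 0.00155) and, to 34229276, with -0.384 under TiO2 (p = 0.0126) in the authors' deposited tables. The 2 highest changes under BPQD in the authors' deposited table were 3.50 in EXOSC7 (3′ UTR, chr3:45035564-45035982, p = 0.00575) and 2.08 in EDC3 (3′ UTR, chr15:74644665-74645294, p = 0.00132), neither of which had a matching peak in that for TiO2.

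**Figure D4:**
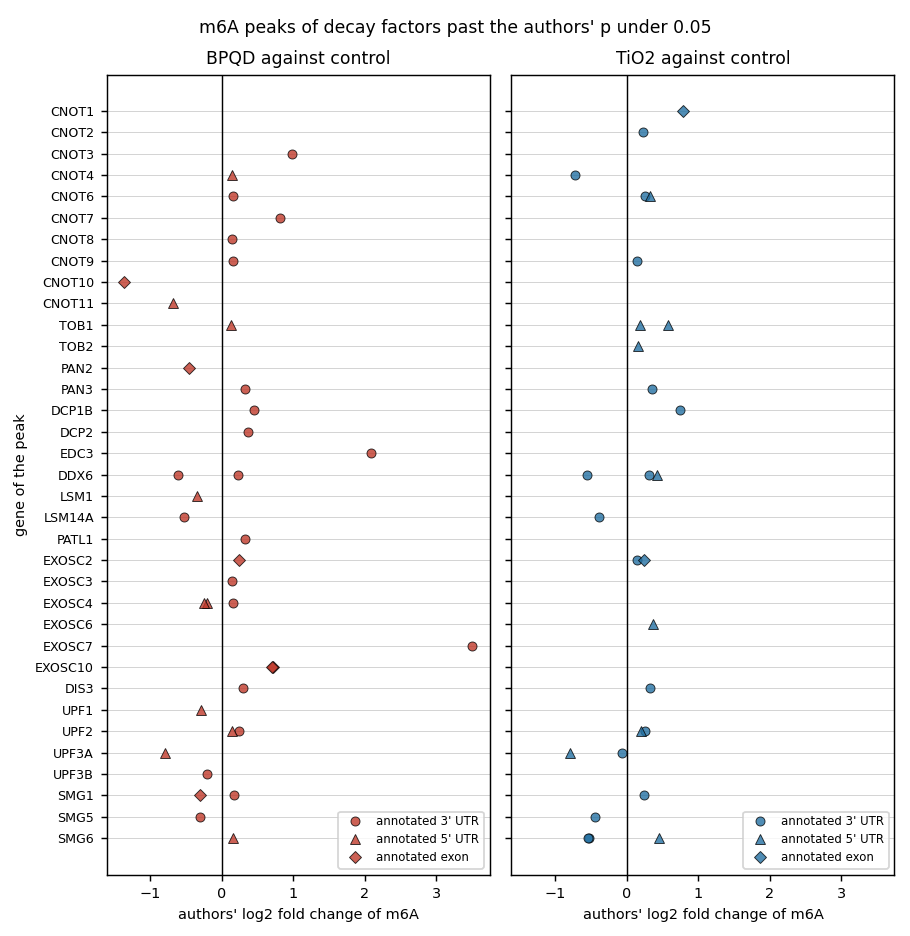
Authors' log2 fold change of m6A at each member peak past the authors' p under 0.05, by gene (rows), for BPQD against control (left) and TiO2 against control (right), with the symbol giving the annotated position. Under BPQD 24 of these peaks lie right of 0 and 13 left of it, under TiO2 20 and 8, and EXOSC7 at 3.50 lies farthest from 0.

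Overlapping peaks across the tables numbered 19 pairs, of which 16 pairs in 13 members passed the authors' p in both. Of all peaks, 64.8% passed it under BPQD and 64.1% under TiO2, and pairs were not counted over all peaks. The wide TOB1 peak under BPQD is paired with both of the overlapping TOB1 peaks under TiO2. The SMG6 peaks of a pair, chr17:2298961-2303785 and chr17:2303472-2309958, overlap only at their ends. The tables share the control libraries, so the values of a pair are given side by side only. Some member peaks may belong to a neighbour: 4 under BPQD, 3 of EXOSC10 and 1 of CNOT10, and 1 of CNOT1 under TiO2 are annotated to an exon of another gene. In the table for each material, 4 peaks overlap another member peak, so they are not separate sites. Among the members lower in mRNA under both materials, CNOT3 had a 3′ UTR peak at chr19:54154634-54154843 with 0.974 under BPQD (p = 0.00257), and 0.888 under TiO2 (p = 0.0891) at chr19:54154754-54154814, in the authors' deposited tables. PAN2, the member with the largest called rise under BPQD, had an exon peak at chr12:56322941-56323121 with -0.464 (p = 0.0263) under BPQD, and -0.320 (p = 0.146) from 56322971 under TiO2, in the authors' deposited tables.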

How the data were processed

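The series holds 18 samples in 6 groups of 3: input and m6A immunoprecipitated libraries of BPQD, TiO2 and control cells, grouped by their labels. The expression table holds FPKM per gene for the 9 input libraries, made by the authors, per the file headers; the submitters' processing notes name HISAT2 (version not given) and StringTie 1.3.0 without their roles, and the mouse build mm10. All 45 members, however, carry human IDs and overlap the gene of that name in RefSeq GRCh38.p14, so coordinates are read as GRCh38. The authors' deposited peak tables give for each peak a log2 fold change in m6A, its p-value and a log10 FDR, which is handled as a score, all made by the authors, per the file headers. The peak caller and any pooling of replicates were not given in the sources used here. Another 12 columns there, of FPKM, were not used.

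Expression was tested with limma 3.58.1 (R 4.3.3), with a trend in the variance, on log2(FPKM + 1) in 1 fit of group means to all 9 libraries, over 12224 genes whose mean was 1 FPKM or more. The test was two-sided, at a Benjamini-Hochberg adjusted p under 0.05. On simulated data it found 70% to 88% of the changes put in, depending on size and comparison, and called 5 to 11 unchanged genes. The simulation drew independent noise for each library and changed few genes. It therefore cannot show how the test behaves where libraries of a group share a batch or where many genes change. Depth was estimated from the smallest steps of FPKM times length in 10216 single-transcript genes of 200 to 3000 bases. The 3 libraries in a group set the precision. Alternatives were a pseudocount of 0.1, no filter, only the 6 libraries compared, a replicate block, rescaling to TPM, median centring and each library left out in turn; for peaks, the authors' p under 0.01, FDR under 0.05, at most 5000 bases wide, or 1 peak per gene. Peaks overlap where they share at least 1 base, without regard to strand. Tables and figures were made with Python 3.11.15, pandas 2.3.3 and matplotlib 3.10.9.

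Members and lists were chosen with earlier results of these data known. Values are given for members called in a comparison and for catalytic subunits, and for up to 3 called genes of each other list with the largest change in any comparison. Sequence under a peak was not analysed here beyond the RefSeq windows of 250 bases before to 50 after a gene's start. The starts shown in Results leave out EXOSC4, whose gene start also lies under peaks. In the authors' deposited table for BPQD these overlapping 5′ UTR peaks changed by -0.212 (p = 0.0107) and -0.258 (p = 0.0038).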

Additional observations from a re-analysis of the deposited data

Results flagged for a closer look

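PAN2, UPF1, SMG1 and EDC3 were flagged because their changes against control had opposite signs under the 2 materials, both past the test, and because the BPQD against TiO2 comparison of the same limma fit also passed. The difference of the 2 effects, as log2 fold change of BPQD over TiO2, was 0.70 for PAN2 (adjusted p = 9.70e-06), 0.42 for SMG1 (adjusted p = 1.93e-05), 0.40 for UPF1 (adjusted p = 3.78e-05) and 0.20 for EDC3 (adjusted p = 0.00118), with 3 of 3 BPQD libraries above 3 of 3 TiO2 libraries in each of the 4 genes. These 4 differences passed in all 15 alternatives, while at least 1 of the calls against control did not: EDC3 and UPF1 under BPQD, and PAN2, SMG1 and EDC3 under TiO2. Both effects use the same control libraries. The comparison between the materials is part of the rule that flagged these genes, so its passing is no separate evidence. Genes that meet the rule were not counted among all tested genes. PAN2 encodes a deadenylase, EDC3 an enhancer of decapping, UPF1 the NMD helicase and SMG1 its kinase, whose near-identical pseudogenes make its level uncertain.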

How the results depend on the processing

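No call against control or between the materials changed direction in any of the 15 alternatives. Of 29 calls under BPQD, 17 were kept in all of them, of 18 under TiO2, 11, and of 26 between the materials, 19. Calls gained in some alternative numbered 4 under BPQD (XRN2, EDC4, EXOSC3 and EXOSC6), 5 under TiO2 (PARN, DDX6, LSM14A, EXOSC5 and EXOSC10) and 5 between the materials (CNOT8, PARN, DCP1A, EXOSC2 and EXOSC10). The members lower under BPQD, 5 in the reported fit, numbered 3 with no filter, with only the 6 libraries compared, with the replicate block, with values rescaled to TPM and with median centring; CNOT3 and EXOSC7 are the calls lost. The members' median under BPQD was 0.173 with TPM and 0.1364 with median centring, under TiO2 0.02498 with TPM, and between the materials 0.1427 with a pseudocount of 0.1, 0.1779 with TPM and 0.1489 with median centring. With TPM 3 members were lower between the materials, and the share of rises among all genes called between them was 60.5% instead of 50.5%. The median of all genes moved too. With TPM it was 0.03821 instead of -0.01245 under BPQD and -0.01444 instead of -0.02483 under TiO2. Between the materials it was 0.04119 with TPM instead of 0.003185. With median centring it was 0.01022 under BPQD, -0.01813 under TiO2 and 0.01916 between the materials. With each library left out in turn, the members higher numbered 17 to 24 under BPQD, 5 to 9 under TiO2 and 16 to 21 between the materials, those lower 3 to 4, 7 to 11 and 3 to 5, and the median ran from 0.1013 to 0.1643, from -0.008497 to 0.02461 and from 0.1084 to 0.1408. Lower peaks numbered 8 instead of 13 under BPQD at the authors' p under 0.01 or FDR under 0.05, and under TiO2 5 at either and 4 with 1 peak per gene, instead of 8. The cause of these shifts was not tested.

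Samples share only a replicate number: deviations of the 9 same-numbered pairs from their group means correlated at -0.083 to 0.073, 0 of 9 over 0.1. With the replicate block 17 members were higher and 3 lower under BPQD, 7 and 9 under TiO2, and 19 and 5 between the materials. FPKM without counts limits what can be said of low genes such as DCP1B and CNOT6L, and the peak tables allow no check between replicates.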

Other observations

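Some members and neighbours took values at separate levels within a group. DCP2 had 5.18 and 5.302 FPKM in BPQD replicates 1 and 2 and 1.47 FPKM in replicate 3, and 3.98 FPKM in control replicate 1 against 1.43 and 0.987 FPKM in the other control replicates. YTHDF3, an m6A reader named after its values had been seen, had 2.56, 2.49 and 2.304 FPKM under BPQD, 2.03, 6.52 and 1.91 FPKM under TiO2 and 1.78, 5.99 and 6.12 FPKM in control. The libraries high for DCP2 were not those high for YTHDF3: in control, DCP2 was highest in replicate 1, where YTHDF3 was lowest.

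In the Lsm ring, which acts with the decapping factors, LSM1 passed no test and 0 of the 6 other genes rose under BPQD. LSM3 had 28.2, 28.7 and 28.2 FPKM under BPQD, 30.7, 34.05 and 32.3 FPKM under TiO2 and 33.4, 32.9 and 33.5 FPKM in control, and fell under BPQD by -0.22 ± 0.036 (adjusted p = 0.0018). BTG1, like BTG2 and the TOB proteins a partner of the CAF1 nucleases, had 6.79, 6.47 and 6.17 FPKM under BPQD, 9.21, 9.76 and 9.37 FPKM under TiO2 and 9.29, 9.07 and 9.13 FPKM in control, and fell under BPQD by -0.44 ± 0.037 (adjusted p = 8.49e-05), with 0.040 ± 0.037 (adjusted p = 0.44) under TiO2.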
